A study of Mus musculus with 6 samples.

Results

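The genes described here are 10 that make, conjugate or carry bile acids in the liver: the hydroxylases Cyp7a1, Cyp7b1, Cyp8b1 and Cyp27a1, the ring-modifying enzymes Hsd3b7 and Akr1d1, the conjugation enzyme Baat, and the bile salt transporters Slc10a1, Abcb11 and Slco1b2. They were chosen by name, with no threshold on a measured value, and all 10 were found among the 20416 genes that at least 1 probe set named alone. All 10 also passed the filter on dim genes, which left 15312 genes for testing. Collagenase perfusion of the liver gave primary hepatocytes of 3 transgenic mice, in which doxycycline switches on a miR-143 allele (miR-143DOX), and of 3 wildtype littermates (control), all adult and on the C57BL/6 background. Every mouse, control or transgenic, drank 4 mg/ml doxycycline with 10% sucrose over 8 days. The promoter that drives the transgene, the sex of the mice and the hour of isolation are not given in the labels used here. Each mouse gave 1 Affymetrix array, a chip on which probe sets, short groups of oligonucleotides along a gene, report RNA as a log2 intensity.

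Bile acids are made from cholesterol in hepatocytes, where they are the main route by which the body disposes of sterol. In the classic pathway Cyp7a1 hydroxylates cholesterol and sets the rate, and in the alternative pathway Cyp27a1 and Cyp7b1 act first on the side chain and then on the ring. Bile salts that return from the gut are taken up by carriers on the sinusoidal membrane and pumped into the canaliculus, and they repress their own synthesis through the farnesoid X receptor (FXR, gene Nr1h4), its target Nr0b2 and the fibroblast growth factor receptor Fgfr4 with its partner Klb.

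The question was which of these transcripts differed between hepatocytes with and without the induced transgene. Cyp7a1 and Cyp7b1 had the lowest group means in miR-143DOX relative to control, at 0.519 times and 0.566 times the control level, and the other 8 genes differed by between -0.21 (Cyp27a1) and 0.25 (Abcb11) on the log2 scale. None of the 10 passed a false discovery rate (FDR) of 5% in limma, adjusted over all 15312 genes (adjusted p = 0.9997 for each), and none of all genes tested did either (0%). At an unadjusted p under 0.05, 2 of the 10 genes lay lower in miR-143DOX and 0 higher, against 1.68% of all genes lower, 1.38% higher and 3.06% in either direction. The groups overlapped for all 10 genes, whereas they did not overlap for 7.13% of all genes (3.73% lower and 3.4% higher in miR-143DOX). Of the 98 probe sets of the 10 genes, 0 reached 5% FDR in limma and 0 an unadjusted p under 0.05, against 0% and 4.46% of all probe sets. The groups did not overlap in 10 of the 98 that were lower and 3 that were higher in miR-143DOX, against 4.57% and 4.52% of all probe sets. The median difference of the 10 was -0.06, with 6 genes below 0, beside a median of 0.01 and 47.6% below 0 over all genes. Since RNA was taken from bulk cells, fewer cells that carry a transcript and less transcript per cell cannot be told apart.

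The 6 arrays correlated at Pearson r of 0.936 to 0.954 over probe sets, and the hepatocyte markers (11 of 12 tested) averaged log2 13.55 to 13.73 in control and 13.59 to 13.68 in miR-143DOX mice. Marker lists of 4 other kinds of liver cell were highest in miR-143DOX replicate 1, with mean log2 deviations of 0.22 for stellate cells (9 of 9 tested), 0.18 for sinusoidal endothelium (10 of 10), 0.18 for Kupffer cells (9 of 9) and 0.16 for cholangiocytes (6 of 9). The mean levels of these lists spanned 6.87 to 6.98 in control and 6.88 to 7.19 in miR-143DOX for stellate cells, 7.59 to 7.70 and 7.27 to 7.76 for endothelium, 7.20 to 7.28 and 7.14 to 7.45 for Kupffer cells, and 6.83 to 6.89 and 6.79 to 7.05 for cholangiocytes. Among the cholangiocyte markers, Sox9 and Aqp1 were highest in miR-143DOX replicate 1, and Krt19, Krt7, Spp1 and Slc10a2 in other mice. A blood cell list had a mean deviation of 0.019 in miR-143DOX replicate 1 and was highest in miR-143DOX replicate 3, at 0.075. Genes with a mean over the 6 arrays below log2 5.06 were treated as dim, and probe sets with a mean below 5.07. The cholangiocyte keratin Krt19 was kept but lay near that limit, at 5.02 to 5.29 in single mice.

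Cyp7a1 encodes cholesterol 7-alpha-hydroxylase, the rate-limiting enzyme of the classic pathway. It measured 10.47, 10.41 and 10.08 in the control mice and 7.98, 10.10 and 10.04 in the miR-143DOX mice (log2, replicates 1, 2 and 3). One mouse, miR-143DOX replicate 1, was low, while the other miR-143DOX mice lay beside control replicate 3. The group means were 9.37 ± 1.21 in miR-143DOX and 10.32 ± 0.21 in control (SD, n = 3 each), a difference of -0.95 with a 95% interval of -1.89 to -0.0044 in the fit (limma unadjusted p = 0.0491, adjusted p = 0.9997). Without miR-143DOX replicate 1 the difference was -0.25 with a standard error of 0.17, and without miR-143DOX replicate 2 or 3 it was -1.31 or -1.28. The unadjusted limma p was above 0.05 without miR-143DOX replicate 1 (0.171), control replicate 1 (0.106) or control replicate 2 (0.0858). With an intensity trend and robust prior, a variance model that pulls the spread of very variable genes less towards the common one, the unadjusted p was 0.215.

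The 6 probe sets of Cyp7a1 read different stretches of the transcript. All 6 were lowest in miR-143DOX replicate 1, and all 6 differences lay below 0, from -1.22 to -0.11. The smallest of them came from probe set 10511381, which was dim in every mouse (3.14 to 3.57), and the 5 brighter ones ranged from -1.22 to -1.07. In probe set 10511380 the 3 control mice measured 12.09, 12.12 and 11.78, and the miR-143DOX mice 9.15, 11.63 and 11.54, so the groups did not overlap there. This held for 3 of the 6 probe sets, against 4.57% of all probe sets for this direction. Probe sets of a gene read the same RNA and are not replicates.

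Cyp7b1 encodes oxysterol 7-alpha-hydroxylase of the alternative pathway and is known for higher expression in male than in female mouse liver. It measured 11.62, 11.03 and 11.50 in control and 9.74, 10.38 and 11.57 in miR-143DOX mice. Replicates 1 and 2 of miR-143DOX lay below every control mouse, and miR-143DOX replicate 3 lay within the control range. The difference was -0.82 with a 95% interval of -1.59 to -0.05 (limma unadjusted p = 0.0392, adjusted p = 0.9997). Without miR-143DOX replicate 3 it was -1.32 with a standard error of 0.23 (adjusted p = 0.243), and without miR-143DOX replicate 1 it was -0.41 with a standard error of 0.29. The unadjusted limma p was above 0.05 without miR-143DOX replicate 1 (0.185) or 2 (0.121), or control replicate 1 (0.108) or 3 (0.0718). That p was also above 0.05 with the median of probe sets (0.0634), with the brightest probe set, and with the intensity trend and robust prior. All 8 probe sets lay below 0, from -1.58 to -0.39, and all 8 were lowest in miR-143DOX replicate 1. The widest was probe set 10497382, at 8.68, 7.95 and 8.53 in control and 5.13, 6.52 and 8.77 in miR-143DOX mice.

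**Figure D1:**
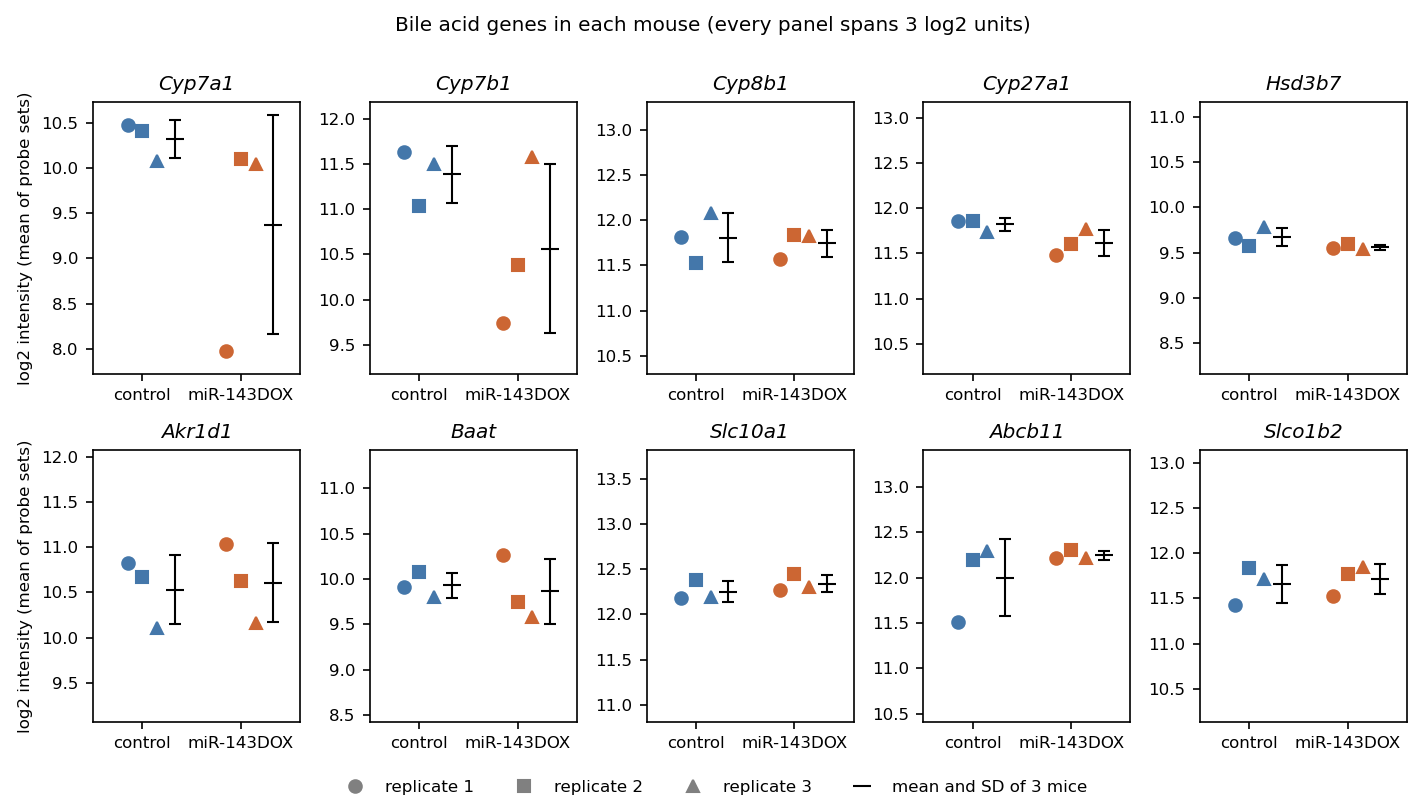
Log2 intensity of the 10 bile acid genes in each mouse, with control in blue, miR-143DOX in orange, and the mean and SD of 3 mice in black, and every panel spanning 3 log2 units. Cyp7a1 is low in miR-143DOX replicate 1 alone (7.98), Cyp7b1 is low in replicates 1 and 2 (9.74 and 10.38), and Abcb11 is low in control replicate 1 (11.51).

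**Figure D2:**
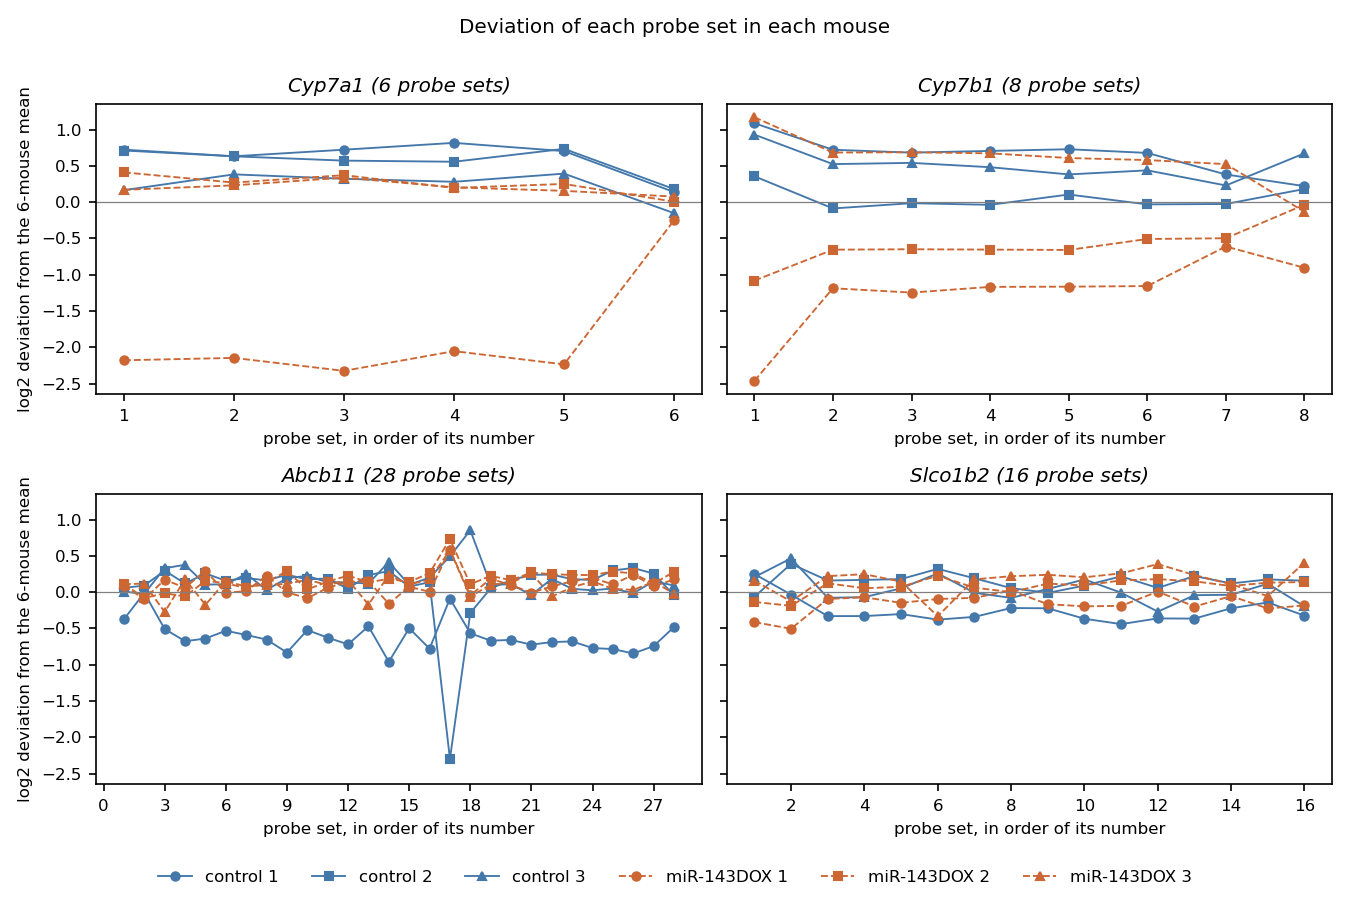
Deviation of each probe set from its own mean over the 6 mice (log2), with probe sets in order of their number, control as solid blue lines and miR-143DOX as dashed orange lines. In Cyp7a1 and Cyp7b1 the line of miR-143DOX replicate 1 is lowest at each probe set, in Abcb11 the line of control replicate 1 is lowest at 26 of 28, and a single Abcb11 probe set drops in control replicate 2.

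The mouse-to-mouse spread of both genes was wide. The pooled SD within groups was 0.87 for Cyp7a1 and 0.70 for Cyp7b1, beside a median of 0.18 over all genes, which placed them at percentiles 99.8 and 99.6 of the genes tested. The other 8 genes lay between 0.08 (Hsd3b7) and 0.41 (Akr1d1).

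Clock genes and male-biased genes also varied between these mice. Cyp7a1 is known to follow the daily rhythm, driven in part by the transcription factor Dbp. Dbp measured 10.08, 8.06 and 8.04 in control and 6.99, 8.14 and 9.35 in miR-143DOX mice, and Arntl, the clock factor of opposite phase, measured 5.56, 7.80 and 7.19 in control and 8.24, 7.25 and 6.35 in miR-143DOX mice. Dbp was thus lowest and Arntl highest in miR-143DOX replicate 1, the mouse with the lowest Cyp7a1. Control replicate 1 was highest for both Dbp and Cyp7a1. Control replicate 2 and miR-143DOX replicate 3 had Dbp at 8.06 and 9.35 but Cyp7a1 at 10.41 and 10.04, the opposite order. Per2 differed by -0.43 and Nr1d1 by 0.33 (standard errors 0.29 and 0.18), and neither passed. Per2 differed by -0.14 without control replicate 1, and Nr1d1 by 0.13 without control replicate 3. Of 15 clock genes tested (16 listed) 8 lay below 0, with a median difference of -0.04. With Dbp minus Arntl as a covariate the difference was -0.70 for Cyp7a1 (standard error 0.36) and -0.57 for Cyp7b1 (0.24). Of 14 male-biased liver genes 11 lay below 0, with a median of -0.16, and the mean deviation of the list was -0.39, -0.15 and 0.22 in miR-143DOX replicates 1, 2 and 3, the order of Cyp7b1 in these mice. In control replicates 1, 2 and 3 it was -0.0060, 0.13 and 0.19, which was not the order of Cyp7b1, since control replicate 1 was lowest for the list and highest for Cyp7b1. In that list Selenbp2, a selenium-binding protein gene, differed by -1.06 (standard error 0.33), the steroid dehydrogenase gene Hsd3b5 by -0.34 (0.28) and the organic anion transporter Slco1a1 by -0.04 (0.23). Hsd3b5 differed by -0.05 without miR-143DOX replicate 1 and by -0.67 without miR-143DOX replicate 3. The part of the clock, of the male-biased program and of other cell types in the low values of miR-143DOX replicate 1 was not tested.

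Cyp27a1 encodes the mitochondrial sterol 27-hydroxylase that opens the alternative pathway. It measured 11.86, 11.86 and 11.74 in control and 11.48, 11.60 and 11.77 in miR-143DOX mice, so that miR-143DOX replicate 3 alone reached into the control range. The difference was -0.21 (95% interval -0.50 to 0.09, limma unadjusted p = 0.151). All 9 probe sets lay below 0, from -0.42 to -0.05, and the groups did not overlap in 5 of them, against 4.57% of all probe sets for this direction. With the brightest probe set alone the difference was -0.05.

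Cyp8b1 encodes sterol 12-alpha-hydroxylase, which directs synthesis to cholic acid, and it measured 11.81, 11.53 and 12.08 in control and 11.57, 11.84 and 11.83 in miR-143DOX mice. The miR-143DOX mice lay inside the control range, and the difference was -0.06 (95% interval -0.41 to 0.29). Its interval leaves room for changes between 0.750 and 1.23 times. The sequence before its start is shown because FXR-driven feedback is known to act on Cyp8b1 through nuclear receptors that bind there, and the capitals mark matches to CAAAGTCCA, an HNF4-type element, and to CAAGGNCA, an element of the Nr5a2 kind, which overlap by 2 bases. Among the 250-base windows before 32851 RefSeq starts, 0.384% held the first and 5.53% the second on either strand.
Cyp8b1 upstream sequence, chr9:121916306-121916555, minus strand: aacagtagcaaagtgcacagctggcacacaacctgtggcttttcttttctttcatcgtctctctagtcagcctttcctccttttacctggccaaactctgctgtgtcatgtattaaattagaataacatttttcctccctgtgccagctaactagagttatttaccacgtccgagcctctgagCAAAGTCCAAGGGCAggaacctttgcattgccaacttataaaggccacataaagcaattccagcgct
The matches lay 67 to 59 and 60 to 53 bases before the start (RefSeq, GRCm38.p6). Hnf4a, the hepatocyte nuclear factor, differed by 0.08 (standard error 0.15), and Nr5a2, also called LRH-1, by -0.02 (0.14).

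Hsd3b7 encodes the 3-beta-hydroxysteroid dehydrogenase that follows the 7-alpha-hydroxylation in both pathways. It was the steadiest of the 10, at 9.66, 9.57 and 9.78 in control and 9.55, 9.59 and 9.54 in miR-143DOX mice, with a difference of -0.11 (95% interval -0.39 to 0.17). Its lowest probe set difference, -0.56, came from probe set 10557783, which was dim on average and measured 5.17, 3.17 and 5.98 in control mice. With the median of its probe sets the difference of Hsd3b7 was 0.01.

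Akr1d1 encodes the 5-beta-reductase that bends the steroid ring. It measured 10.82, 10.67 and 10.11 in control and 11.03, 10.63 and 10.16 in miR-143DOX mice. Replicate 1 was highest and replicate 3 lowest in both groups, and the difference was 0.08 (95% interval -0.43 to 0.58). Its 9 probe sets ranged from -0.45 to 0.46, 4 below and 5 above 0.

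Baat, which joins bile acids to taurine and glycine, measured 9.91, 10.08 and 9.80 in control and 10.27, 9.74 and 9.58 in miR-143DOX mice. The highest and the lowest mouse were both miR-143DOX, and the difference was -0.07 (95% interval -0.46 to 0.32). Probe set 10512896 was dim and ranged from 3.10 to 5.99. Without it the difference was 0.00492, and the other 4 probe sets ranged from -0.12 to 0.08.

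Among the transporters, Slc10a1, the sodium-taurocholate cotransporter of the sinusoidal membrane, measured 12.18, 12.38 and 12.19 in control and 12.27, 12.44 and 12.30 in miR-143DOX mice. The ranges overlapped and the difference was 0.09 (95% interval -0.21 to 0.38). Of its 6 probe sets, 5 lay above 0.

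Abcb11 encodes the bile salt export pump of the canalicular membrane and is a classic FXR target. It measured 11.51, 12.20 and 12.29 in control and 12.22, 12.30 and 12.21 in miR-143DOX mice. Control replicate 1 was low, and the other 5 mice lay within 12.20 to 12.30. The difference was 0.25 (95% interval -0.17 to 0.66, limma unadjusted p = 0.22), and without control replicate 1 it was 0.00208. Control replicate 1 was the lowest mouse in 26 of the 28 probe sets. Probe set 10483427 stood apart, at 12.03, 9.82 and 12.62 in control and 12.70 to 12.85 in miR-143DOX mice, and gave the highest difference of all 98 probe sets of the 10 genes, 1.26. It was left out in an alternative added after seeing the data, and Abcb11 then differed by 0.21.

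Slco1b2, the organic anion carrier that takes up unconjugated bile acids, measured 11.43, 11.84 and 11.72 in control and 11.52, 11.76 and 11.84 in miR-143DOX mice. Both replicates numbered 1 were lowest, and the difference was 0.05 (95% interval -0.29 to 0.38). Control replicate 1 was lowest in 13 of its 16 probe sets, and without that mouse the difference was -0.07. Its probe sets ranged from -0.55 to 0.38. In probe set 10542617, the lowest of them, the mice measured 10.31, 10.74 and 10.81 in control and 9.84, 10.16 and 10.22 in miR-143DOX, without overlap, while 12 of the 16 lay above 0.

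The sequences before the starts of Abcb11 and Slco1b2 are shown since both held an inverted repeat of the nuclear receptor hexamer, searched as GGNCA and its reverse complement TGNCC with 1 free base between them, which is the kind of element FXR is known to bind. Capitals mark this match together with the hexamer AGGTCA, read on the opposite strand, that overlaps it. Of 32851 windows, 0.575% held the inverted repeat and 14% the hexamer on either strand, and the hexamer was also found in the windows of Akr1d1 and Slc10a1.
Abcb11 upstream sequence, chr2:69342617-69342866, minus strand: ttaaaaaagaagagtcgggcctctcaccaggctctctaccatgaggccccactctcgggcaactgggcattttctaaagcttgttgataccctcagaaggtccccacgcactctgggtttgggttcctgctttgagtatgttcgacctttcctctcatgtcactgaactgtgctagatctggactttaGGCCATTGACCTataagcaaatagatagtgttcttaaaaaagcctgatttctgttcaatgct
Slco1b2 upstream sequence, chr6:141629268-141629451, plus strand: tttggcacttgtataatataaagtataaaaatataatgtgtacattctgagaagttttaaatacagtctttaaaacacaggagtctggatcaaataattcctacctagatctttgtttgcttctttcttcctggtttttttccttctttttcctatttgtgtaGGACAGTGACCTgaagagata
The inverted repeat lay 62 to 52 bases before the start in Abcb11 (RefSeq, GRCm38.p6). In Slco1b2 it lay 87 to 77 bases before the end of the window searched. The last part of that window lay inside the annotated gene, and only the 184 bases outside the gene are printed. The Slco1b2 distance therefore does not count from the end of the printed sequence, where the match lies closer. A match is a description of the letters and not a site of binding. A promoter window was held for 7 of the 10 genes, and Cyp7a1, Cyp7b1 and Baat are named only. FXR itself, Nr1h4, measured 9.82, 9.54 and 9.67 in control and 9.23, 9.73 and 10.02 in miR-143DOX mice, a difference of -0.02 (95% interval -0.43 to 0.40).

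**Figure D3:**
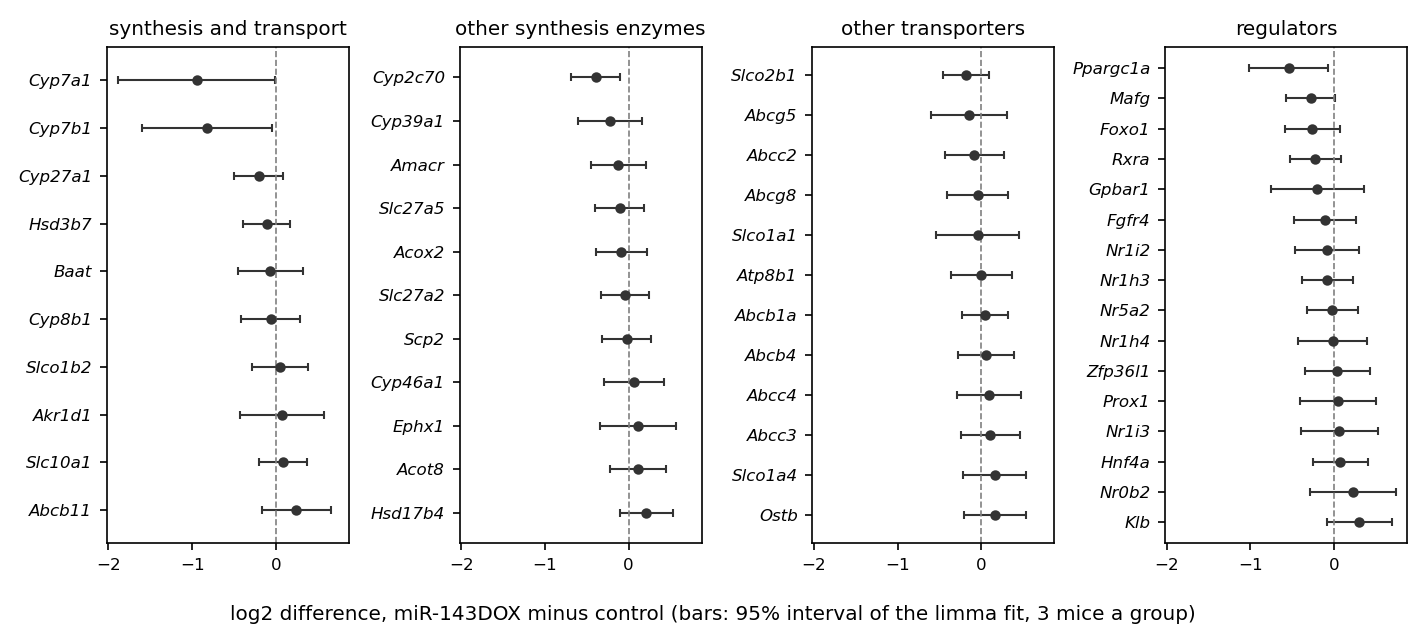
Log2 differences, miR-143DOX minus control, of the 10 genes and of 3 further lists of bile acid genes, each with the 95% interval of the limma fit over 3 mice a group. The intervals of Cyp7a1 and Cyp7b1 are the widest among the 10 genes and end just below 0 (-0.0044 and -0.05), and Cyp2c70 and Ppargc1a are the other genes drawn whose intervals leave out 0.

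In the wider pathway, 0 of 39 further genes passed 5% FDR over all genes in limma. At an unadjusted p under 0.05, 2 lay lower and 0 higher, against 1.68% and 1.38% of all genes. The bile acid transporter Slc10a2 was listed with the cholangiocyte markers and is not counted here. It lay higher in miR-143DOX, by 0.60 (limma unadjusted p = 0.00488, adjusted p = 0.9997). Of 11 other enzymes of synthesis and conjugation (of 12 listed) the median difference was -0.04. Cyp2c70, the mouse enzyme that makes muricholic acids, measured 12.82, 12.87 and 12.84 in control and 12.50, 12.28 and 12.58 in miR-143DOX mice. Every miR-143DOX mouse lay below every control mouse, with a difference of -0.39 (95% interval -0.68 to -0.10, limma unadjusted p = 0.0131, adjusted p = 0.9997). It stayed between -0.46 and -0.31 with each mouse left out, and the unadjusted limma p was above 0.05 without miR-143DOX replicate 2 (0.0591) and with the brightest probe set (0.0735). Differences were 0.21 for Hsd17b4, a peroxisomal enzyme of side-chain shortening, -0.23 for the oxysterol hydroxylase Cyp39a1 and -0.12 for the racemase Amacr, with standard errors of 0.14, 0.18 and 0.15.

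Of 12 other transporters (of 13 listed, without Slc10a2) the median difference was 0.02 and 0 passed an unadjusted p under 0.05. The smallest p belonged to the organic anion carrier Slco2b1, at -0.18 (standard error 0.13), followed by Slc51b, the small subunit of the basolateral bile acid exporter and listed under its older symbol Ostb, at 0.16 (0.17), Slco1a4 at 0.16 (0.17) and the sterol transporter subunit Abcg5 at -0.15 (0.21). In Slco2b1 the groups did not overlap, at 9.51, 9.53 and 9.65 in control and 9.35, 9.39 and 9.41 in miR-143DOX mice.

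Of 16 regulators (of 17 listed) the median difference was -0.05. The coactivator Ppargc1a measured 7.64, 6.95 and 6.78 in control and 6.89, 6.45 and 6.41 in miR-143DOX mice, a difference of -0.54 (limma unadjusted p = 0.0278, adjusted p = 0.9997). The ranges overlapped, and without control replicate 1 the difference was -0.28. With the brightest probe set of Ppargc1a it was -0.18 (unadjusted p = 0.477), and the unadjusted p was 0.0943 with the median of its probe sets and 0.134 with its dim probe sets left out. Mafg, a repressor that FXR induces, differed by -0.28 (standard error 0.13) with groups that did not overlap, and by -0.06 with the median of its probe sets. Foxo1 differed by -0.26 (0.15) and Klb by 0.30 (0.18). The feedback genes Nr0b2 and Fgfr4 differed by 0.22 (0.24) and -0.11 (0.17). Nr0b2 measured 8.32, 7.26 and 7.94 in control and 8.19, 7.76 and 8.24 in miR-143DOX mice, and control replicate 2 was the low one. Read from the brightest probe set alone, Nr0b2 differed by -0.14 and Fgfr4 by 0.91.

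Cholesterol, the substrate, is made by a pathway of which 19 listed genes (of 23) were tested. Of these 13 lay below 0, with a median of -0.10, and 3 lay lower and 0 higher at an unadjusted p under 0.05, against 1.68% and 1.38% of all genes. The squalene epoxidase gene Sqle measured 10.11, 9.81 and 10.08 in control and 9.58, 9.34 and 9.75 in miR-143DOX mice, a difference of -0.44 (standard error 0.15) without overlap. The sterol demethylase gene Cyp51 differed by -0.34 (0.15), the methylsterol oxidase gene Msmo1, listed as Sc4mol, by -0.46 (0.20) and the squalene synthase gene Fdft1 by -0.28 (0.16). Without control replicate 1, Sc4mol differed by -0.24 and Fdft1 by -0.17. None of the 3 kept an unadjusted p under 0.05 with the brightest probe set alone (0.0936 for Sqle, 0.122 for Cyp51 and 0.138 for Sc4mol), and Sqle alone kept it with the median of probe sets. No gene of the list passed 5% FDR in limma.

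**Figure D4:**
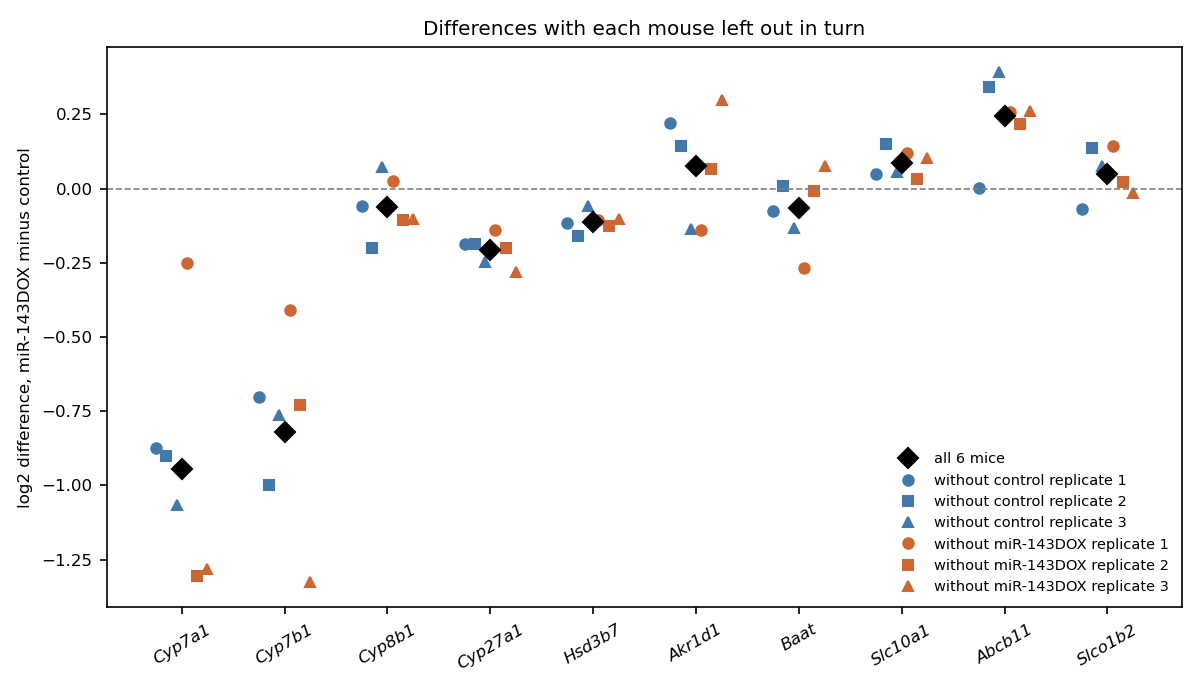
Log2 difference of each of the 10 genes with all 6 mice (black) and with each mouse left out in turn (blue for a control mouse, orange for a miR-143DOX mouse). Cyp7a1 ran from -1.31 to -0.25, Cyp7b1 from -1.32 to -0.41, and Abcb11 reached 0.00208 without control replicate 1.

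The genes whose values over the 6 mice lay nearest to those of Cyp7b1 were Gpr110, 4933411K16Rik, C4a, Ugt1a10 and C6, at root mean square distances of 0.24, 0.25, 0.25, 0.26 and 0.28 log2 units between deviations from each gene's mean. The complement gene C6, which is on the male-biased list, measured 11.16, 11.23 and 11.62 in control and 10.13, 10.64 and 11.55 in miR-143DOX mice. The nearest to Cyp7a1 were X76971, Gm3435, Snord35b, Lifr and Rnf208, farther off at 0.36, 0.37, 0.43, 0.45 and 0.45. Lifr, the receptor of leukemia inhibitory factor, measured 11.05, 11.35 and 11.10 in control and 9.84, 10.56 and 11.16 in miR-143DOX mice, again with replicate 1 lowest. These 10 genes were picked from 15312 for their likeness over 6 mice, and the distances are a description.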

How the data were processed

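RNA of primary hepatocytes from 6 mice was read on Affymetrix arrays. The deposited values are log2 intensities per probe set, taken as log2 since they ran from 1.60 to 15.2. Partek, of no stated version, was used per the submitters' processing notes, and the background correction, normalization and summarization are not given in the sources used here. Of 234873 probe sets, 212097 had 1 gene symbol in the platform annotation and were used for genes, 4475 had several and 18301 had none. The values were quantile normalized over the 6 arrays. Before this step the arrays spanned 0.127 at their 75th percentile and 0.135 at their 95th. A gene was the mean of its probe sets. The dimmest 25% of 20416 genes were left out. No detection call was used, and the number of arrays limits the precision.

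A two-sided limma model (version 3.58.1, R 4.3.3) with group as its only term was fitted over all genes, with Benjamini-Hochberg adjustment, and likewise over 212097 probe sets. Differences are miR-143DOX minus control, and intervals are 95% intervals of the fit. The steps were tested on simulated data, with shifts added to independent normal noise. Those data held no single outlying mouse, so the test does not cover that case. The genes and lists were chosen with earlier results of these data known, by a rule that named, besides the 10 genes, those with an unadjusted p under 0.05 in each pathway list and at least the 4 with the smallest p, a fixed set of regulators, clock and male-biased genes, the extreme probe sets and the 5 nearest profiles of 2 genes. Of 164 list entries, 152 were found as written, 3 under an older symbol and 9 not at all, and 9 of those found were dim and not tested. A blood cell list (4 of 10 tested) had a median difference of 0.06. Alternatives were other scalings, filters, summaries of probe sets and variance models, a replicate block, a clock covariate and each mouse left out.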

Additional observations from a re-analysis of the deposited data

How the results depend on the processing

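Under the other settings run, 0 of the 10 genes, 0 of the other bile acid genes and, where probe sets were fitted, 0 of their 98 probe sets passed 5% FDR in limma, with adjusted p of the 10 genes no lower than 0.243. The cause of each change below was not tested. The count of the 10 genes at an unadjusted p under 0.05, 2 with all settings as reported, was 1 on the deposited values, with dim genes kept in, with the lowest 50% of genes left out, with dim probe sets left out or with the clock covariate. It was 0 with the median of probe sets, the brightest probe set or the intensity trend, and 0 to 2 with a mouse left out. The count of other bile acid genes, also 2, was 1 with the median of probe sets, with dim probe sets left out or with array weights, 0 with the brightest probe set, and 0 to 4 with a mouse left out. The count of probe sets, 0, was 4 with the intensity trend, 1 with array weights, and 0 to 8 with a mouse left out. The 8 came without miR-143DOX replicate 3, where the share of all genes was 7.37%. That share, beside which the gene counts are read, was 3.06% with all settings as reported. It was 6.67% for array weights. For the other settings above that keep all mice, it lay between 2.6% (clock covariate) and 3.66% (median of probe sets). Without miR-143DOX replicate 1, where 4 other bile acid genes were counted, it was 2.08%. Without miR-143DOX replicate 2, where 0 were counted, it was 1.95%. The share of all probe sets was 4.46% with all settings as reported, and was not counted under these alternatives. The median of the 10 genes was 0.016 with the brightest probe set, and -0.12 to -0.056 with a mouse left out. Of 171 values of the 10 genes under alternatives 14 changed sign, and of 492 values of other named genes 27 did. With the median of probe sets, Hsd3b7 was 0.012, Slco1b2 -0.011, Nr0b2 -0.055 and Hnf4a -0.093. With the brightest probe set, Baat was 0.081, Nr1h4 0.23, Nr0b2 -0.14, Nr5a2 0.049, Fgfr4 0.91, Dbp 0.21 and Slco1a1 0.11. With dim probe sets left out, Baat was 0.0049 and Nr0b2 -0.084. With array weights, Cyp8b1 was 0.025 and Slco1b2 -0.063, and with the clock covariate Nr1h4 was 0.099. Arntl was -0.040 with that covariate and is counted among the 27. The covariate is built from Arntl itself, so this change of sign says nothing about Arntl. With a mouse left out, the genes that changed sign ran from -0.20 to 0.074 (Cyp8b1), -0.14 to 0.30 (Akr1d1), -0.27 to 0.075 (Baat), -0.068 to 0.14 (Slco1b2), -0.22 to 0.022 (Amacr), -0.33 to 0.10 (Abcg5), -0.20 to 0.20 (Nr1h4), -0.067 to 0.46 (Nr0b2), -0.10 to 0.074 (Nr5a2), -0.045 to 0.17 (Hnf4a), -0.26 to 0.065 (Fgfr4), -1.16 to 0.11 (Dbp), -0.21 to 0.90 (Arntl) and -0.32 to 0.12 (Slco1a1).

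Same-numbered mice share only a number in the labels, and the correlations of their deviations from the group means were 0.11, 0.047 and 0.30. For mice of different number they ran from -0.26 to 0.15. Whether the numbers stand for a pairing was not tested. With the replicate block, 2 of the 98 probe sets reached an unadjusted limma p under 0.05, against 0 without it. Of all probe sets, 4.46% reached it without the block, and their share with the block was not counted. The block changed no call at 5% FDR. Of all genes, 4.79% reached an unadjusted limma p under 0.05 with the block, against 3.06% without it.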

Other observations

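Slc10a2, the apical sodium-dependent bile acid transporter known from the ileum and from bile duct cells, was measured as one of the cholangiocyte markers and is named here after its values were seen. It measured 8.74, 8.63 and 8.49 in control and 9.37, 8.83 and 9.46 in miR-143DOX mice (log2). Every miR-143DOX mouse lay above every control mouse, as held for 3.4% of all genes in that direction. The difference was 0.60 (95% interval 0.22 to 0.98), which is 1.51-fold, and did not pass 5% FDR over all genes (limma unadjusted p = 0.00488, adjusted p = 0.9997). It ran from 0.48 to 0.79 with each mouse left out. Beside it, the bile duct keratins Krt19 and Krt7 differed by -0.10 and 0.14 (standard errors 0.13 and 0.14). The cholangiocyte marker Spp1 differed by -0.32 (0.14), with groups that did not overlap, Sox9 by 0.10 (0.20) and Aqp1 by -0.18 (0.18). With Slc10a2 these are the 6 cholangiocyte markers tested, whose mean deviation was 0.16 in miR-143DOX replicate 1. That mean includes Slc10a2 itself and so is not a separate measure beside it. The other markers were also named after their values were seen.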
